A study of Mus musculus with 4 samples.

Results

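The 6 genes described here, Drd2, Penk, Adora2a, Gpr6, Gpr52 and Sp9, are those that mark the striatal projection neurons of the indirect pathway. They were taken by symbol, each as 1 row, from a table of 19465 genes. The study placed coronal brain sections of 4 mice, fixed in formalin and embedded in paraffin, on the 10x Genomics Visium CytAssist assay, in which pairs of probes for each gene are counted at barcoded spots of tissue. The labels give 2 wild-type mice and 2 mice heterozygous for Celsr3, a gene for an atypical cadherin of the cell surface, with no treatment. Age, sex and strain are not given there, nor is the nature of the Celsr3 allele. The deposited table joins all sections, and its spot names end in 1 of 4 suffixes that match none of the labels, so 0 of the 4 resulting barcode sets could be tied to a mouse. No comparison between genotypes was therefore made, and each value below belongs to barcode set 1, 2, 3 or 4. Since sets in no group were not taken as replicates, no test over sets was run.

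Projection neurons make up most of the striatum and fall into a pair of classes. Direct-pathway neurons carry the D1 dopamine receptor and project to the output nuclei of the basal ganglia, while indirect-pathway neurons carry the D2 receptor and reach those nuclei through the external pallidum. In indirect-pathway neurons the D2 receptor lowers cAMP and an adenosine receptor raises it, and the peptide they release is enkephalin.

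Spots were sorted into areas by clustering on genes other than the 6, with 25 clusters in all. The dorsal striatum comprised 3 clusters, 1 led by Scn4b, 1 by Rgs9 and 1 with Lrrc10b and Rxrg among its leading genes, and held 2543 of 12601 spots. The ventral-marker striatum was 1 cluster of 547 spots led by Pdyn, Crym and Wfs1, and the other 9511 spots formed the other areas. A spot is a small region that can hold several cells of different types, so the values are levels per area and not per cell. The 14 genes that mark the whole striatum summed to between 15922 and 19045 CPM (counts scaled to a total of 1000000 per area and set) in the dorsal striatum, to between 8785 and 11531 CPM in the ventral-marker cluster and to between 778.9 and 926 CPM elsewhere. Of the dorsal markers, Cnr1 lay between 455 and 836 CPM in the dorsal clusters and between 80.8 and 151 CPM in the ventral-marker cluster. Of the ventral markers, Wfs1 lay between 63.4 and 146 CPM in the dorsal clusters and between 329 and 430.0 CPM in the ventral-marker cluster, while the sum over all 10 ventral markers overlapped between both, at 3944 to 5243 and 4562 to 5852 CPM. Most of that sum was Arpp21, at 3452 to 4851 CPM in the dorsal clusters and 3263.5 to 4018 CPM in the ventral-marker cluster. Cartpt, Crym, Dlk1, Pdyn, Peg10, Stard5, Wfs1 and Zcchc12 were each higher in the ventral-marker cluster in every set, while Arpp21 and Nts were not. The label ventral thus rests on part of its list. The cluster also held RNA of tissue beside the ventricle: the choroid plexus markers summed to 4738 and 6541 CPM there in sets 1 and 3 but to 22.4 and 41.4 CPM in sets 2 and 4, and the hypothalamus markers to between 682 and 1403 CPM. The ventricle-lining markers were instead highest in sets 2 and 4, at 25.6, 88.5, 31.1 and 165 CPM in sets 1 to 4. In the dorsal striatum they summed to between 3.77 and 9.93 CPM. The dorsal striatum was built from different clusters in different sets, since set 2 supplied 551 of the 578 spots of the cluster with Lrrc10b and Rxrg and 5 of the 1142 spots of the Scn4b-led cluster. The other areas differed in make-up as well. The cluster led by Lbhd2 had 27, 140, 261 and 0 spots in sets 1 to 4, and the cluster led by Tcf7l2 had 150, 0, 1 and 302. The part of that mix in differences between sets in the ratios to the other areas was not tested. Total counts in the dorsal striatum were 30242854, 23421334, 31270138 and 11480353 in sets 1 to 4.

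The sequence just before the transcription start was at hand for 3 of the 6 genes, Drd2, Gpr6 and Sp9, and is shown because these genes share a striatal pattern while differing in how far they extend beyond the striatum. The letters are RefSeq's on build GRCm38.p6, written 5′ to 3′ on the strand of the gene, and the build behind the deposited counts is not given in the sources used here. Drd2 is at chr9:49340153-49340359 on the plus strand, Gpr6 at chr10:41072291-41072540 on the minus strand and Sp9 at chr2:73271676-73271925 on the plus strand. All 3 stretches lie upstream of the annotated gene, for which the Drd2 window was shortened to 207 bases. Capitals mark the GC box GGGCGG, the CCAAT box CCAAT and the cAMP response element TGACGTCA, each on either strand.
Drd2: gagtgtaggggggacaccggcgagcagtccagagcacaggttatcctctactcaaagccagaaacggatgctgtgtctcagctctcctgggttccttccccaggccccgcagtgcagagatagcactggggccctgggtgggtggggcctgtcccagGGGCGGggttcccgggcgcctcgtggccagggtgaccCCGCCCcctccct
Gpr6: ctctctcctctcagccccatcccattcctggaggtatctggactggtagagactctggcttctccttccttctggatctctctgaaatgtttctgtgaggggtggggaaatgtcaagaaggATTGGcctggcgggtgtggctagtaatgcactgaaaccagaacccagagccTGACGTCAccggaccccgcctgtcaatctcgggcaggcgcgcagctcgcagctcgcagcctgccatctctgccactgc
Sp9: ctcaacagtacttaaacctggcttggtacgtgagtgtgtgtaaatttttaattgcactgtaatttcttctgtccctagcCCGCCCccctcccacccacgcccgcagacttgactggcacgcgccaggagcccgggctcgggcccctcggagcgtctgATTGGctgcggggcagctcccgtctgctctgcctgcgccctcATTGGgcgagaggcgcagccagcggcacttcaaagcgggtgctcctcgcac
Drd2 holds 2 GC boxes and Sp9 holds 1, a motif found in 32.7% of 32851 RefSeq promoter windows of 250 bases. Gpr6 holds the palindromic cAMP response element, which 1.55% of the windows hold. CCAAT stands once in Gpr6 and 2 times in Sp9, each on the reverse strand, and in 33.8% of the windows. The TATA box TATAAA, the homeobox core TAATTA and the retinoid half-site AGGTCA were not in these letters for any of the 3 genes. A match is a description of the letters and not a site.

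All 6 genes were higher in the dorsal striatum than in the other areas by at least 2-fold in each of the 4 sets. Over all genes, 3.22% of the 13658 tested did the same. The share of all genes whose dorsal values lay clear of all values elsewhere is not given, so such separation below is a description only. The size of the ratio differed widely among the 6, and the order was Adora2a, Drd2, Gpr6, Penk, Gpr52 and Sp9, with median ratios over the sets of 68.5, 38.3, 33.8, 27.8, 10.6 and 3.50. Drd2 and Gpr6 overlapped in their ratios over the sets, as did Gpr6 and Penk, while Gpr52 and Sp9 stood clear of the others and of each other. The areas were drawn with other striatal genes, so a higher level in them is a description of where these genes lie and carries no p-value. Intervals below are 95% and cover counting error only, exact Poisson for a level and exact conditional binomial for a ratio. In these sections, fewer cells of a type and less RNA per cell cannot be told apart.

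Drd2, the inhibitory dopamine receptor of indirect-pathway neurons, was at 396, 425, 352 and 284 CPM in the dorsal striatum of sets 1 to 4. In the other areas it was at 9.80, 11.7, 8.58 and 8.34 CPM, so no dorsal value came near any value elsewhere. The ratio in single sets ran from 34.0 (interval 31.3 to 37.1) in set 4 to 41.0 (38.5 to 43.7) in set 3. Set 4 had the lowest level in both areas.

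Adora2a, the adenosine receptor that opposes the D2 receptor on cAMP, was at 434, 441, 454 and 387 CPM in the dorsal striatum and at 6.49, 6.29, 7.11 and 4.96 CPM elsewhere. Its ratios of 63.9 to 78.1 were the steepest of the 6, and its median ratio ranked 2 among all genes tested, behind Sh3rf2 at 73.6. Between 92.9% and 96.0% of all Adora2a counts of a set fell on striatal spots, which held 14.9% to 27.2% of all counts.

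Penk encodes the precursor of the enkephalins, opioid peptides of the indirect pathway. It was at 2767, 2704, 2629 and 2923 CPM in the dorsal striatum and at 100.1, 99.3, 93.8 and 91.5 CPM elsewhere. The 4 ratios, 27.7, 27.2, 28.0 and 31.9, were close together, with set 4 above the rest. Striatal spots held 85.0% to 90.3% of its counts.

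Gpr6 and Gpr52 are receptors whose signalling raises cAMP and whose natural ligands are not settled. Gpr6 was at 178, 255, 177 and 217 CPM in the dorsal striatum and at 4.80, 7.78, 6.12 and 6.23 CPM elsewhere, with ratios of 37.1, 32.8, 29.0 and 34.9. Gpr52 was at 198, 211, 186 and 147 CPM in the dorsal striatum and at 20.4, 17.1, 16.3 and 16.3 CPM elsewhere, with ratios of 9.69, 12.4, 11.4 and 9.07. For both genes the groups of 4 values did not overlap. A larger part of Gpr52 lay outside the striatum: striatal spots held 60.3% to 80.5% of its counts, against 85.5% to 91.8% for Gpr6.

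Sp9 encodes a zinc-finger transcription factor needed for the development of indirect-pathway neurons. It was at 20.3, 31.0, 18.7 and 40.8 CPM in the dorsal striatum and at 5.04, 12.3, 6.25 and 10.2 CPM in the other areas, with ratios between 2.52 in set 2 and 4.03 in set 1. Sets 2 and 4 were the higher in both areas. Striatal spots held 42.5% to 51.6% of its counts, so about as many Sp9 counts fell outside the striatum as inside it.

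**Figure D1:**
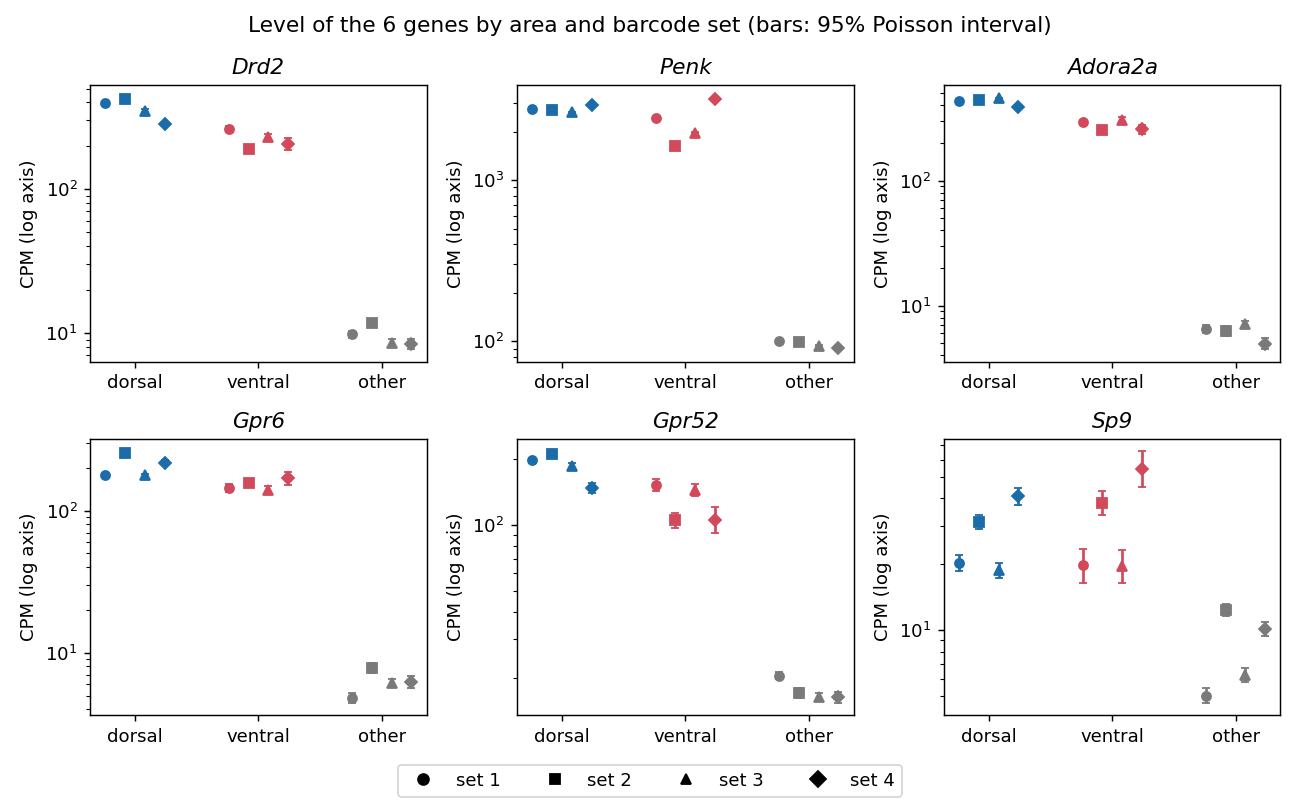
Level of each of the 6 genes in CPM (log axis, its range differing by panel) in the dorsal striatum (blue), the ventral-marker striatum (red) and the other areas (grey), with a marker shape for each barcode set and bars for the 95% Poisson interval. In each panel the 4 dorsal values lie above the 4 grey values, with the narrowest distance for Sp9, at 18.7 to 40.8 against 5.04 to 12.3 CPM.

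Genes of the same circuit were read from lists to set the 6 beside them. Of 9 direct-pathway genes, 7 were at least 2-fold higher in the dorsal striatum in every set, with a median ratio of 5.85 over the list against 0.927 over all genes tested. Drd1, the D1 receptor, had a median ratio of 21.0, and Tac1, the precursor of substance P, 11.1. Of 7 further genes reported in indirect-pathway neurons, 1 did so, Gucy1a1, a subunit of soluble guanylyl cyclase, at 3.70; the list's median was 1.09. All 11 genes of the coupling and cAMP list did so with a median of 13.3, but several of them, such as Rgs9 and Pde10a, are among the markers that defined the area. Of 6 opioid receptors and propeptide-processing enzymes, 1 did so, Oprd1, the delta receptor for enkephalins, at 2.63. The mu receptor gene Oprm1 had a median ratio of 0.418 and the processing enzyme gene Pcsk2 one of 1.00.

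Spots were next compared at equal depth, each thinned to 15000 counts, to see how widely each gene was detected. Penk was detected in every thinned dorsal spot of every set, Adora2a in 98.7% to 99.6%, Drd2 in 96.4% to 99.0%, Gpr6 in 90.6% to 97.5%, Gpr52 in 86.1% to 93.3% and Sp9 in 23.2% to 44.9%. The 6 clusters outside the striatum with at least 2 markers of cortical layers among their 20 leading genes, a rule set after the data were seen that reads none of the 6 genes, were taken for comparison, with 2412 spots and median counts per spot from 33594 in set 4 to 65516 in set 1. In their thinned spots Drd2 was detected in 3.99% to 7.35%, Adora2a in 5.29% to 10.8%, Gpr6 in 6.56% to 10.0% and Sp9 in 2.62% to 8.88%. Gpr52, at 17.0% to 25.1%, and Penk, at 42.3% to 52.8%, were detected there more often. The rule left out the larger Adra1d-led and Trbc2-led clusters, of 920 and 754 spots, which held 1 such marker each. Their median Drd2 levels were 1.61 and 2.97 CPM, against 10.3 CPM in the Nr4a2-led cluster, which was kept. The shares are therefore those of the 6 clusters and not of the cortex. The mix of these clusters differed by set. Set 4 held 473 of the 503 spots of the Arc-led cluster and all 315 of the Cux2-led one, but 1 spot of the Igfn1-led and 0 of the Kcnab3-led cluster. The lowest shares of Drd2, Adora2a, Gpr52 and Penk and the highest of Sp9 were those of set 4. Before thinning, Drd2 was detected in at least 97.9% of dorsal spots of a set and in 7.62% to 22.3% of spots in those 6 clusters. Thinning left out 1, 2, 0 and 14 dorsal spots of sets 1 to 4 that held too few counts.

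In the ventral-marker cluster, 4 of the 6 genes, Drd2, Adora2a, Gpr6 and Gpr52, were lower than in the dorsal striatum in all 4 sets with intervals below 1, where 4.77% of the 13605 genes tested were lower and 10.2% higher (649 and 1389 genes, turning to 1520 and 580 with TMM scaling, which matches areas on their typical gene). Penk was lower in 3 sets, and Sp9 was not lower in any set beyond its counting error. Over the 6 genes the median ratio was 0.763, over all genes 1.09. The 14 striatal markers were lower in that cluster too, at 0.630, 0.522, 0.647 and 0.546 of their dorsal sum in sets 1 to 4, but a cluster cut from such genes tests nothing about them. White matter markers summed to between 6026 and 8677 CPM there against 10291 to 14621 CPM in the dorsal striatum, and the part of that and of the ventricular tissue in these ratios was not tested beyond the values given next.

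Drd2 was at 259.7, 189, 231 and 207 CPM in the ventral-marker cluster, each below every dorsal value. Its ratios to the dorsal level were 0.656, 0.445, 0.657 and 0.731, with set 2 the lowest at an interval of 0.419 to 0.472. Adora2a, at 293, 252, 307 and 258 CPM, gave ratios of 0.675, 0.570, 0.675 and 0.666, so the receptors of dopamine and adenosine were lower by much the same share in sets 1 and 3. Gpr6 gave ratios of 0.805, 0.617, 0.793 and 0.777, and Gpr52 of 0.767, 0.496, 0.774 and 0.716. Set 2 had the lowest ratio for each of these 4 genes.

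Penk gave 0.876, 0.598, 0.746 and 1.09, at levels of 2425, 1617, 1961 and 3174 CPM. In set 4 its interval, 1.06 to 1.12, lay above 1, and in the other sets below. These intervals leave out the spread of Penk over spots. After thinning, its variance over its mean in ventral-marker spots was 10.4, 8.09, 5.97 and 17.6 in sets 1 to 4. Counting error alone gives about 1, and Drd2, Adora2a, Gpr6 and Gpr52 were at 0.985 to 2.14 there. The Penk intervals are thus too narrow for that spread, most so in set 4. Scaling with TMM or with RLE, a related method, turned set 4 to log2 ratios of -0.03 and -0.04, and grouping spots by a marker score or leaving set 1 out of the clustering turned it to -0.19 and -0.25. The direction of Penk in set 4 thus depended on the grouping and the scaling, while it was lower in sets 2 and 3 under each alternative run.

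Sp9 was at 19.8, 38.0, 19.6 and 54.5 CPM in the ventral-marker cluster. Its ratios were 0.973 (0.798 to 1.18), 1.22 (1.05 to 1.42), 1.04 (0.857 to 1.26) and 1.34 (1.08 to 1.65), from 112 to 244 counts. The intervals of sets 2 and 4 lay above 1, and both ratios fell below 1 under other clusterings. Of the 9 direct-pathway genes, 2 were lower in the ventral-marker cluster in every set, 2 were higher and the median ratio was 1.03. Drd1, at 0.838, 0.878, 0.860 and 0.647, and Chrm4, a muscarinic receptor, at 0.607, 0.732, 0.671 and 0.459, were lower. Pdyn, the dynorphin precursor that led the cluster, and Sfxn1, a mitochondrial carrier, were higher. Pdyn is itself among the ventral markers that named the cluster, so its higher level there is no separate result.

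Because of the ventricular RNA, the comparison was repeated without the 138 of 547 ventral-marker spots that held over 500 CPM of choroid plexus or ventricle-lining markers, a choice made after seeing the data. Drd2 then stood at 0.612, 0.453, 0.587 and 0.778 of the dorsal level and Adora2a at 0.615, 0.588, 0.651 and 0.687. Penk stood at 0.967, 0.620 and 0.777 in sets 1 to 3 and, with an interval of 1.16 to 1.23, above 1 in set 4, so its order over the sets was as before, and the same 4 genes were lower in every set. Sp9 changed, to 0.900, 1.15, 0.956 and 1.03 in sets 1 to 4. Its intervals then held 1 in every set, also in sets 2 (0.981 to 1.34) and 4 (0.797 to 1.31).

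**Figure D2:**
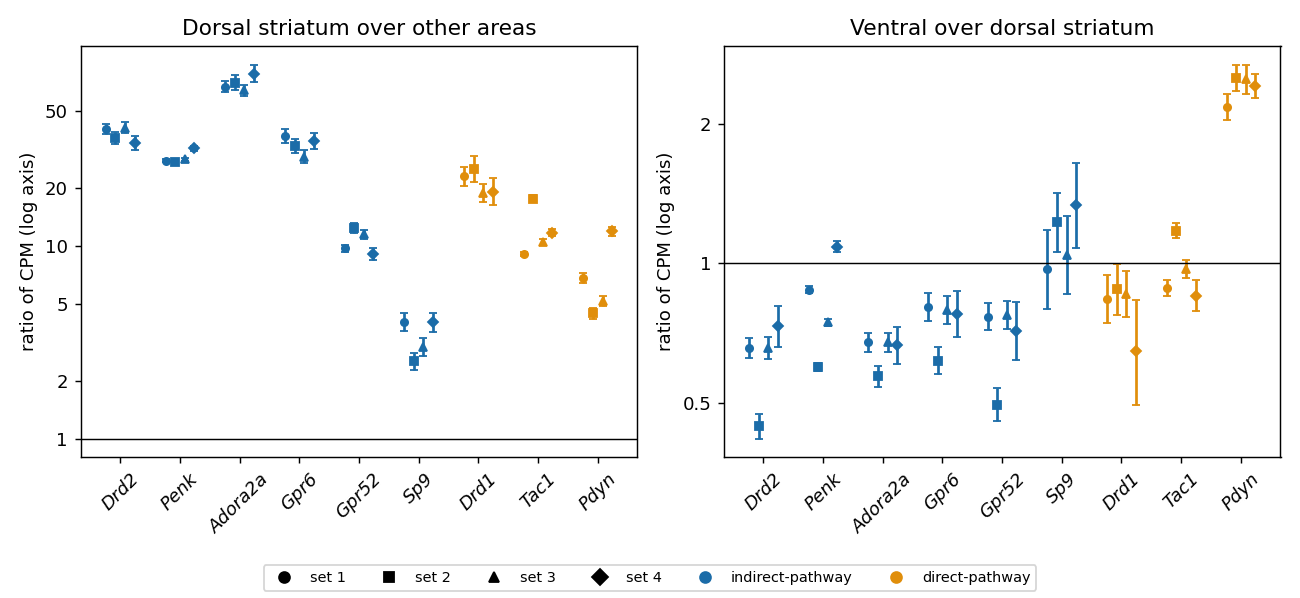
Ratio of CPM (log axes) for the 6 indirect-pathway genes (blue) and 3 direct-pathway genes (orange) in each barcode set, with the dorsal striatum over the other areas on the left, the ventral-marker cluster over the dorsal striatum on the right, and bars for 95% intervals of counting error. On the right Drd2, Adora2a, Gpr6 and Gpr52 lie below the line at 1 in all 4 sets, Penk crosses it in set 4 and Pdyn, itself a ventral marker that named the cluster, lies above it.

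The cluster boundary was also set aside by ordering all striatal spots of a set by their dorsal minus ventral marker score and cutting them into 5 bins of equal size. Drd2 was highest in the most dorsal bin of every set, at 438, 479, 399 and 318 CPM, and in the most ventral bin stood at 0.587, 0.403, 0.575 and 0.637 of that. Adora2a was likewise highest in the most dorsal bin of every set, and the most ventral bin stood at 0.640, 0.529, 0.603 and 0.632 of it. For Gpr52 the same ratios were 0.687, 0.483, 0.670 and 0.691, with the highest bin the most dorsal in sets 1 to 3 and bin 3 in set 4. Gpr6 was at 0.840, 0.660, 0.743 and 0.757 in the most ventral bin, but its highest bin was 3, 4, 2 and 1 in sets 1 to 4, so it did not fall steadily from the dorsal end. Penk was flatter in sets 1 and 4, at 0.922 and 0.951, than in sets 2 and 3, at 0.562 and 0.681. Sp9 was at 1.32 and 1.37 in sets 2 and 4, with intervals above 1, and at 0.890 and 0.836 in sets 1 and 3, with intervals that held 1. The bins kept the spots rich in choroid plexus or ventricle-lining markers. Between 58.9% and 88.4% of the spots of the last bin belong to the ventral-marker cluster, so the gradient restates part of the comparison above with another cut.

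**Figure D3:**
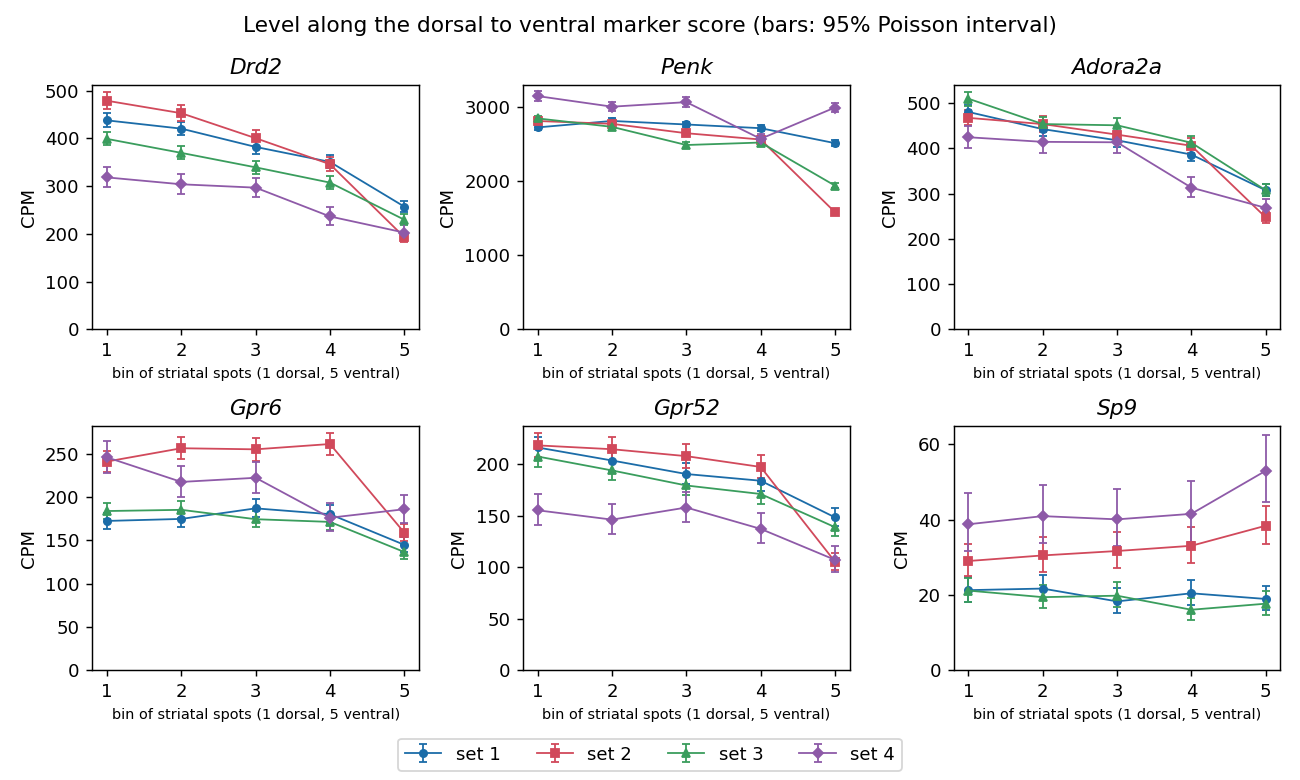
Level in CPM of each of the 6 genes over 5 bins of striatal spots ordered from the most dorsal (1) to the most ventral (5) marker score, a line for each barcode set and bars for the 95% Poisson interval. Drd2 and Adora2a are highest in bin 1 of every set, Penk ends at 0.922 and 0.951 of its first bin in sets 1 and 4, and Sp9 is highest in bin 5 in sets 2 and 4.

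For each gene the 3 clusters outside the striatum with the highest median level were read, beside the level of the 14 striatal markers in the same cluster as a percent of their dorsal level. The Lhx8-led, Ttr-led and Nts-led clusters, described next, were these 3 for Drd2, Penk and Adora2a alike, while Sp9, Gpr52 and Gpr6 had others among theirs. In the cluster led by Lbhd2, Ctxn3 and Prkcd Sp9 was at 19.5, 79.7 and 25.6 CPM in sets 1 to 3, which is 96.3%, 257% and 137% of its dorsal level in the same set. The striatal markers stood at 4.34% to 5.04% of their dorsal level there. Set 4 had 0 spots in that cluster. In the cluster led by Nts, Cyp26b1 and Lypd1, Sp9 had a median of 65.8% of the dorsal level, and in the cluster led by Ccdc153, Tmem212 and Rarres2, genes of ciliated cells that line the ventricles, of 59.8%. The counts behind the last are few, from 9 to 26 per set.

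Gpr52 was highest outside the striatum in the cluster led by Tcf7l2, Lhx9 and Gbx2, genes of the thalamus. It was at 38.4 and 25.9 CPM in sets 1 and 4, the sets with at least 20 spots there, or 19.4% and 17.6% of its dorsal level, while the striatal markers were at a median of 4.37% and Adora2a at 0.318% and 0.875%. In the clusters led by Nts and by Nr4a2 it was at medians of 27.5 and 25.9 CPM. By medians over sets Gpr52 lay above the striatal markers in each of these 3 clusters on the percent scale, but in set 2 of the Nts-led cluster it stood at 13.2% of dorsal and the markers at 13.8%.

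Penk was highest in the cluster led by Lhx8, Ngfr and Spp1, at 274, 326 and 311 CPM in sets 1, 3 and 4, or 9.89% to 12.4% of dorsal. In the Nts-led cluster it was at 292, 724, 322 and 225 CPM, with the highest value, in set 2, from 34 spots. The third was the Ttr-led cluster of choroid plexus genes, where the striatal markers were themselves at a median of 15.4% of dorsal and Penk at 7.75%.

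Drd2 was at 32.3, 30.7 and 34.7 CPM in the Lhx8-led cluster, 8.16% to 12.2% of its dorsal level, where Adora2a was at 3.60% to 6.82%. Its other leading clusters were the Ttr-led and the Nts-led ones, at medians of 29.7 and 19.9 CPM. Outside that rule, and chosen after its values were seen, the Lbhd2-led cluster held Drd2 at 7.45, 49.4 and 18.8 CPM, or up to 11.6% of dorsal in set 2, where Adora2a was at 0.485%. Over all other areas there were 1.21 to 1.87 Drd2 counts per Adora2a count, against 0.732 to 0.962 in the dorsal striatum.

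The leading clusters of Adora2a were the Ttr-led, Lhx8-led and Nts-led ones, at medians of 40.5, 23.2 and 20.9 CPM. In the Ttr-led and Nts-led clusters these were 9.15% and 4.78% of dorsal, under the striatal markers at 15.4% and 7.09%, and in the Lhx8-led cluster 3.60% to 6.82%, where the markers had a median of 8.05%. Gpr6 was at 22.8 CPM in the cluster led by Gal, Nts and Irs4, measured in 1 set only, and at medians of 22.2 and 10.9 CPM in the Ttr-led and Ccdc153-led clusters.

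**Figure D4:**
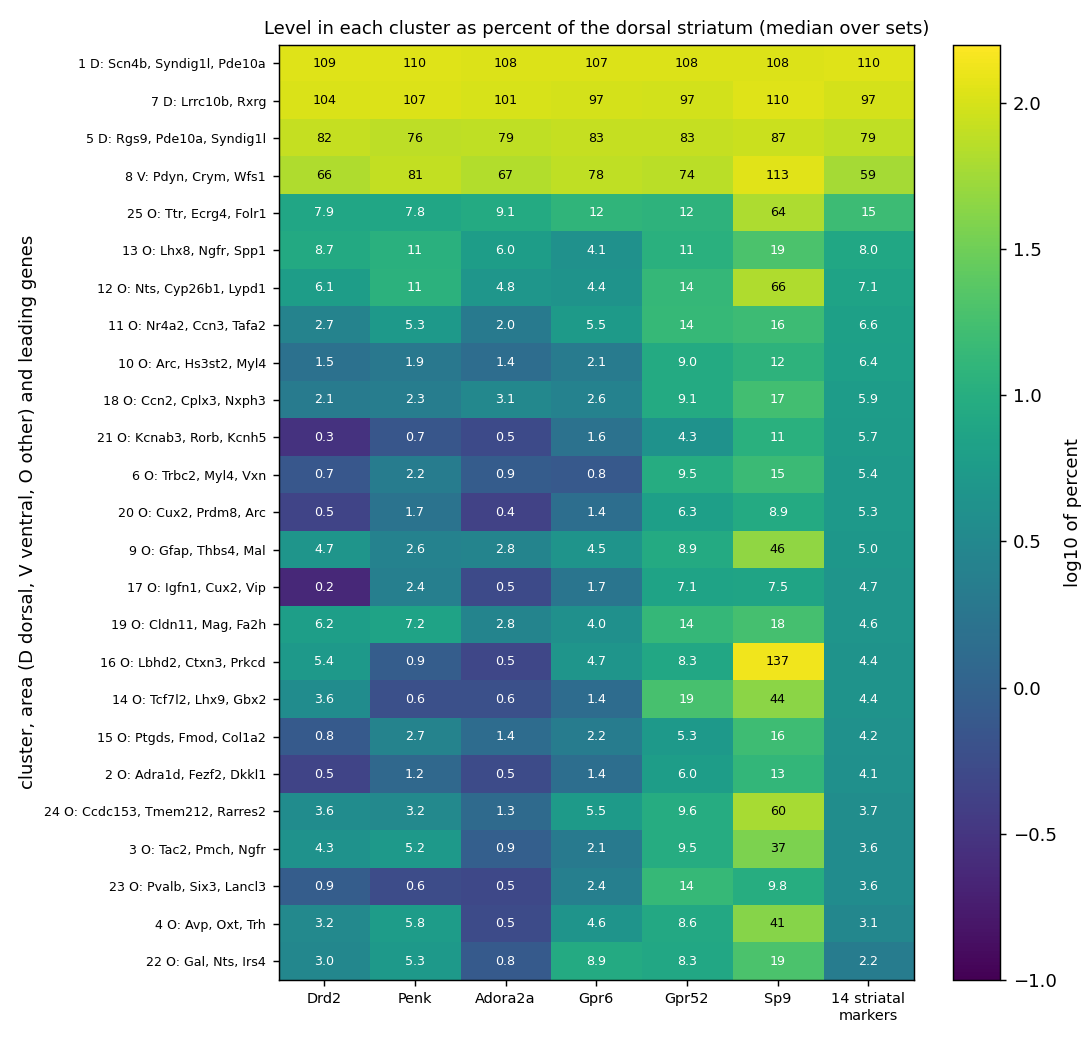
Median level over the barcode sets with at least 20 spots of each gene in each of the 25 clusters, as a percent of its level in the dorsal striatum, with the 14 striatal markers in the last column and colour on a log10 scale. Sp9 reaches 137% in the cluster led by Lbhd2, where the striatal markers stand at 4.4%, and Gpr52 reaches 19% in the cluster led by Tcf7l2, while Adora2a lies under the marker column in each cluster outside the striatum.

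Within the dorsal striatum the sets lay apart to different degrees. Penk and Adora2a were the most even, with the highest set 1.11 and 1.17 times the lowest. The same ratio was 1.43 for Gpr52, 1.44 for Gpr6 and 1.497 for Drd2, near the median of 1.48 over all genes tested. Sp9 was the exception at 2.18, and 17.4% of the 13214 genes tested were at least 2-fold apart. Drd2 and Gpr52 were lowest in set 4, Gpr6 was highest in set 2 and Sp9 in set 4. Set 4 over set 3, for example, was a ratio of 2.18 for Sp9, while with TMM scaling the highest over the lowest set was under 2 for each of the 6 genes, and it was so for Sp9 when set 4 was left out. Depth differed with these sets, at a median of 23526 counts per dorsal spot in set 4 and 47080 in set 1, and its part in the differences was not tested beyond thinning, under which Sp9 was still at least 2-fold apart.

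Across single dorsal spots the 6 genes varied together to a modest degree. With counts thinned to equal depth and put on a square-root scale, Pearson's r between Penk and Adora2a was 0.414 to 0.493 over the 4 sets, between Drd2 and Penk 0.282 to 0.373 and between Drd2 and Adora2a 0.261 to 0.320. With Drd1 the range was -0.047 to 0.069 for Drd2 and -0.037 to 0.035 for Adora2a. Drd1 was itself low, at 51.1 to 62.0 CPM in the dorsal striatum. Its r with Tac1, a gene of the same pathway, was only -0.008 to 0.134, and that of Drd2 with Tac1 was 0.023 to 0.134. Values near 0 with Drd1 therefore do not tell the pathways apart. Penk ran against the myelin gene Mbp at -0.495 to -0.386. The share of fibre bundles in a spot was not measured, and its part in these values was not tested. Each r is over the 466 to 766 thinned dorsal spots of a set, which share a section and a library, and is a description only. Sp9, with under 1 thinned count per spot on average, was within 0.101 of 0 against each of the other 5.

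**Figure D5:**
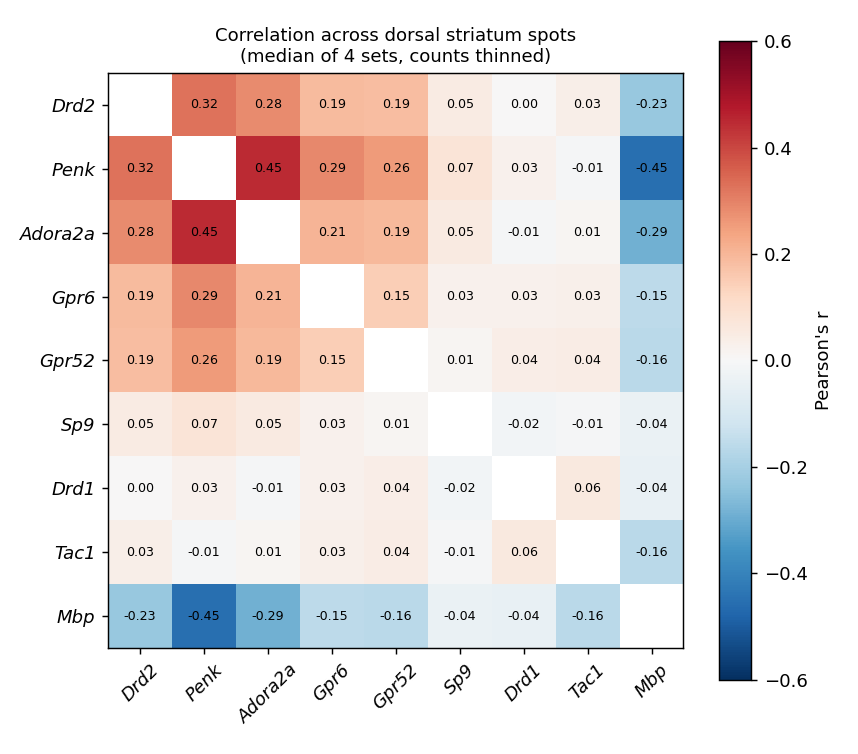
Pearson's r across dorsal striatum spots, as the median of the 4 barcode sets, among the 6 indirect-pathway genes, the direct-pathway genes Drd1 and Tac1, and Mbp, from thinned counts on a square-root scale. Penk, Adora2a and Drd2 show 0.28 to 0.45 with each other and 0.03 or less in size with Drd1, and all 3 are negative with Mbp. Drd1, a gene of low counts, shows only 0.058 with Tac1.

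The genes whose levels were most like each of the 6 were read over 72 sums of spots, 1 for each cluster and set with enough spots, among 11699 genes. For Drd2 they were Rgs9, Lrrc10b and Gpr6, with r of 0.954, 0.925 and 0.920 on the log2(CPM + 1) scale. For Penk they were Rgs9, Asic4 and Gng7, at 0.907 to 0.915, for Adora2a Sh3rf2, Pde10a and Drd1, at 0.944 to 0.962, for Gpr6 Sh3rf2, Pde10a and Serpina9, at 0.929 to 0.934, and for Gpr52 Tbc1d8, Pde10a and Rarb, at 0.914 to 0.940. Sp9 had another set, Spint1, Rrp1b and Cacng4, at 0.795 to 0.832, and its r with the other 5 genes was 0.579 to 0.751. Among those 5, r lay between 0.839 and 0.925. The sums share sections and libraries, and several of the likest genes are the striatal markers that shaped the clusters. With Spearman's rho in place of r, 5 of the 18 named genes were named again.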

How the data were processed

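Spatial gene expression was measured in brain sections of 4 mice with Visium CytAssist for fixed tissue. The authors deposited 1 table of raw counts per gene and spot, unnormalised whole numbers from all sections; Space Ranger and Seurat are named in the submitters' processing notes, without versions or genome build. The members and lists were chosen with earlier results of these data known, and the rule that gives clusters to areas after the clusters were seen.

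Of 12602 spots, 12601 with at least 500 counts were kept. The 2000 most variable genes, without the 6 genes, the direct-pathway, further indirect-pathway and opioid lists, Celsr genes and sex-linked genes, were scaled to 10000 counts per spot, log transformed and centred per set. Clusters came from 30 principal components, 15 neighbours and the Leiden method at resolution 0.8 (leidenalg 0.10.2, umap-learn 0.5.12, scanpy 1.11.5). Among a cluster's 20 leading genes, more ventral than dorsal markers, with at least 2 ventral and 1 striatal, made it ventral, and otherwise at least 3 striatal markers made it dorsal. Of the spot barcodes, which mark positions on a slide, 1613 of 4744 occur in all 4 sets. Doublet calling does not apply to spots.

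Counts were summed per area and set and divided by their total (CPM). Genes had to reach 1 CPM. Called means at least 2-fold in every set for dorsal over other areas, and an interval on 1 side of 1 in every set for ventral over dorsal. The median log2 ratio of all genes was -0.13 to -0.10 for dorsal over other and 0.09 to 0.14 for ventral over dorsal; TMM and RLE (edgeR 4.0.16, scaling only) moved the first by 0.07 to 0.18 and the second by -0.25 to -0.13. The calls were checked on simulated counts. Named genes are the 6, the 3 likest genes of each, up to 4 examples per list and, per gene, the 3 clusters outside the striatum with the highest level. Since probes differ, levels of different genes give no measure of their relative RNA amounts. The same holds for shares of spots detected and for Drd2 counts per Adora2a count. The planned genotype comparison was not made. Depth was 90752475 to 174761560 counts per set.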

Additional observations from a re-analysis of the deposited data

How the results depend on the processing

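No paired analysis was possible because replicate numbers belong to mice and no barcode set could be tied to one; areas were compared within each set. For that reason the planned edgeR and DESeq2 fits, the replicate block and the fits without a mouse were not run. All 6 genes were at least 2-fold higher in the dorsal striatum than elsewhere under each of the 13 alternatives, from TMM scaling to clustering without any 1 set, and 4 or 5 of the 6 were lower in the ventral-marker cluster in every set under each alternative that gave it in all sets used. No such cluster was found at resolution 0.4 or without set 4. Without centring it had 187 spots of set 2 and 81 of set 4 and none of the others, so counts over all sets could not be made; Drd2, Adora2a, Gpr6 and Gpr52 were lower in both sets, and Penk was lower in set 2 and higher in set 4.

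For Penk, the log2 ratio of ventral over dorsal in set 1 turned to 0.0035 without set 2 and 0.030 without set 3. In set 4 it turned to -0.19 with a marker score, -0.25 without set 1, -0.030 with TMM and -0.043 with RLE. For Sp9 in set 2 it turned to -0.47 without set 1 and -0.22 with at least 2000 counts per spot. For Sp9 in set 4 it turned to -0.49 without set 1, -0.038 without set 2, -0.089 without set 3, -0.071 with at least 2000 counts and -0.11 at resolution 1.2. The cause was not tested.

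Over all genes, 649 were lower in the ventral-marker cluster in every set; this became 259 with at least 2000 counts per spot, 386 at resolution 1.2, 1520 with TMM, 1446 with RLE and 408 with thinned counts. The 1389 higher genes became 734 without set 3, 437 with at least 2000 counts, 694 at resolution 1.2, 580 with TMM, 709 with RLE, 658 with thinned counts and 895 without spots rich in choroid plexus or ventricle-lining markers, the last chosen after seeing the data. Of the 6 genes, 1, Sp9, was 2-fold apart between sets in the dorsal striatum, and 0 were without set 4 or with TMM. Over all genes the 2295 became 1367 without set 4 and 8023 with no minimum level. Of the 18 likest genes, 5 were kept with Spearman's rho. Sp9, with 112 to 244 counts per set in the ventral-marker cluster, is where depth limits the comparison most.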
